A study of Mus musculus with 3 samples.

Results

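The clustered histone genes encode the core histones H2A, H2B, H3 and H4 and the linker histone H1. They were taken here as the protein-coding genes of GENCODE release M21 (mm10) whose symbol starts with Hist1h, Hist2h, Hist3h or Hist4. This gave 67 genes of the 21755 protein-coding genes on chromosomes 1 to 19 and X. By cluster, 54 belong to Hist1 (chr13:21715763-23934851), 10 to Hist2 (chr3:96219865-96270132) and 2 to Hist3 (chr11:58948920-58956830), and Hist4h4 lies alone at chr6:136801553-136804415. By class, 6 encode H1, 18 H2A, 18 H2B, 12 H3 and 13 H4. The rule used names only, so none of the H3K4me3 values below chose the genes. The testis variants of H1, H2B and H2A are encoded by Hist1h1t (chr13:23695814-23696725, plus strand), Hist1h2ba (chr13:23933773-23934156, minus strand) and Hist1h2aa (chr13:23934462-23934851, plus strand).

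H3K4me3, trimethylation of lysine 4 of histone H3, was measured by ChIP-seq in whole adult testis of F1 males from a C57BL/6J-derived mother and a CAST/EiJ father, aged 23 weeks. All carried a Prdm9 allele with the humanized zinc-finger array and the CAST allele, so there was a single condition with no control genotype. There were 2 ChIP libraries and 1 input library without antibody. The methods of the study describe the ChIP libraries as coming from different littermates, while the labels describe the testes of a single male. In the latter case the libraries differ by technical error alone. Peaks had been called on both ChIP libraries together against the input, so the replicates do not have peak sets of their own and no comparison between groups of samples could be tested. Members are not replicates either, and their values are given as descriptions.

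Most clustered histone genes are replication-dependent. They are short, lack introns, and are transcribed when a cell copies its DNA, and their mRNAs end in a stem-loop bound by SLBP instead of a poly(A) tail. NPAT activates them in nuclear histone locus bodies. In the testis, the variants H1t, TH2A and TH2B accumulate in meiotic germ cells, and much of the histone complement is later exchanged for transition proteins and protamines. H3K4me3 marks the first nucleosomes of active and poised promoters, and in meiotic cells the methyltransferase PRDM9 also places it at recombination hotspots. The mark is not a measure of transcription.

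The promoters are shown first because the results turn on genes that share a peak, on the testis variants and on copies that are nearly identical. Each sequence is the 150 bases before the RefSeq start in GRCm38.p6, written along the gene, 5′ to 3′. Capitals mark an exact match to 1 of 4 motifs known from histone promoters, on either strand. The octamer, bound by OCT1, the product of Pou2f1, was searched as ATTTGCAT. The TATA box near the site where transcription begins was searched as TATAAA. The box bound by the factor NF-Y was searched as CCAAT, after which it is named. The H1 box, typical of linker histone promoters, was searched as AAACACA. The linker histone genes come first, with the testis gene Hist1h1t ahead of Hist1h1c, the H1 gene of highest enrichment, and Hist1h1a, the only H1 gene without an H1 box.
Hist1h1t (chr13:23695661-23695810, plus strand): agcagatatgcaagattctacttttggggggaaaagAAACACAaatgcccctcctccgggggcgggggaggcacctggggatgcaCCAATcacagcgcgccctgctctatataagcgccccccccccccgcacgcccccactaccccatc
Hist1h1c (chr13:23738657-23738806, plus strand): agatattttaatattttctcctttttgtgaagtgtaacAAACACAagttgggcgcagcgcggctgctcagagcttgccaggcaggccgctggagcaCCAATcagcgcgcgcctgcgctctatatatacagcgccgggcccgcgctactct
Hist1h1a (chr13:23763518-23763667, plus strand): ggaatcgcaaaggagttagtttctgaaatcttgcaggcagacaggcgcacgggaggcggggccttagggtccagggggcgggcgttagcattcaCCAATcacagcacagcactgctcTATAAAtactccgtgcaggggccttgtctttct

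Hist1h1t and Hist1h1c had the same arrangement in these windows. The H1 box began 114 bases before the start of Hist1h1t and 112 before that of Hist1h1c, and the CCAAT box 65 and 54 bases before it. An exact TATA box was found in Hist1h1a, 33 bases before the start. The next set shows H2A and H2B genes: the divergent testis pair Hist1h2ba and Hist1h2aa, the somatic Hist1h2bg, and Hist2h2ab, a member with the highest enrichment.
Hist1h2ba (chr13:23934157-23934306, minus strand): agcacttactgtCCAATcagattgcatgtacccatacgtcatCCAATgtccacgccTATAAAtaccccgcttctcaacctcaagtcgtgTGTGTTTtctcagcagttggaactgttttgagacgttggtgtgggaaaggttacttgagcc
Hist1h2aa (chr13:23934287-23934436, plus strand): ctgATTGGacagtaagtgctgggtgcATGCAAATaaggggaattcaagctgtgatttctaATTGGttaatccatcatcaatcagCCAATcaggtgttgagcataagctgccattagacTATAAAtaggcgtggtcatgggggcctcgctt
Hist1h2bg (chr13:23571250-23571399, plus strand): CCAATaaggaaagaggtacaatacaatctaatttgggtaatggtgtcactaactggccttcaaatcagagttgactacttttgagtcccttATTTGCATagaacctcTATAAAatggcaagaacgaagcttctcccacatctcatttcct
Hist2h2ab (chr3:96219735-96219884, plus strand): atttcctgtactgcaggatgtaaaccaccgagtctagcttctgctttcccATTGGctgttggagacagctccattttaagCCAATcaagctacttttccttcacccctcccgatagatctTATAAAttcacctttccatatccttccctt

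In Hist1h2aa the octamer lay on the opposite strand, 124 bases before the start. The same 8 bases, at chr13:23934313-23934320, lay 164 bases before the start of Hist1h2ba and beyond the printed stretch. Hist1h2bg carried the octamer 59 bases and the TATA box 43 bases before its start. The last set shows the H4 gene of highest enrichment, Hist1h4a, and the nearly identical genes of lowest enrichment, Hist1h4m and Hist1h4n.
Hist1h4a (chr13:23761250-23761399, minus strand): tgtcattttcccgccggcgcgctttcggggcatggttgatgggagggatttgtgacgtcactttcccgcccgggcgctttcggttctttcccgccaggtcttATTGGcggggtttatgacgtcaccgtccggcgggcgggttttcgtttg
Hist1h4m (chr13:21811596-21811745, plus strand): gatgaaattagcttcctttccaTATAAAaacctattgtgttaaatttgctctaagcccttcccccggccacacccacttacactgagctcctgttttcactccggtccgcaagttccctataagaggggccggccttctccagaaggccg
Hist1h4n (chr13:21832198-21832347, minus strand): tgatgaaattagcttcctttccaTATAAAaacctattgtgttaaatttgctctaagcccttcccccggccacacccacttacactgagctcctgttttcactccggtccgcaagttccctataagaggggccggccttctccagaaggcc

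Hist1h4m and Hist1h4n matched at 99.7% of the bases that could be aligned without gaps in their promoter windows. Neither carried a CCAAT box in the printed stretch, and the TATA match lay 128 bases before the start of Hist1h4m and 127 bases before that of Hist1h4n. Hist1h4a carried an inverted CCAAT box 48 bases before its start.

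H3K4me3 was found at nearly every clustered histone gene, at a median level below that of all marked promoters. A narrow peak, a called position with an estimated centre, lay within 1 kb of a transcript start for 57 of the 67 genes (85.1%), against a background of 77.4% of all protein-coding genes. A broad peak, a merged stretch of enriched 100-bp bins, lay within 1 kb for 66 of 67 (98.5%), against 80.2%. No test was made of these shares, because the genes share peaks and clusters and are not independent.

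The narrow peaks at these genes were lower than those of other genes. Enrichment, the authors' estimate of ChIP signal relative to the local background from both replicates, had a median of 16.9 over the 57 genes with a peak (quartiles 11.9 and 36.3). Over all protein-coding genes with a peak the median was 37.6 (quartiles 14.7 and 65.3). Of the 57 genes, 14 lay above the all-gene median and 5 above the upper quartile. With genes lacking a peak set to 0, the medians were 13.8 for the 67 genes and 22.9 for all. In whole tissue a lower level cannot be told apart between fewer cells carrying the mark and less of it per cell. Fragments that fit several similar gene copies can also be lost in mapping, and their share was not tested.

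The fragments counted over the peak centres, from the same libraries as the enrichment, gave the same order. The median, taken over the mean of both ChIP libraries, was 280.0 fragments for clustered histone genes and 731 for all genes with a peak, and 11 of the 57 lay above the latter. On the log2 scale, with 1 added to each count and no scaling for library size, the median ratio of ChIP to input was 4.11 against 5.22. The broad peaks were of like width to those of other genes. Over distinct broad peaks the median was 3150 bp for clustered histone genes and 3100 bp for all protein-coding genes. Counted once per gene, which weights the shared peaks, the medians were 4000 and 3300 bp.

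The replicates ranked the genes alike. The 57 genes took 44 distinct peaks, and replicate 2 was higher at 36 of them. The summed coverage of all narrow peaks was 17621116 fragments for replicate 1, 19094837 for replicate 2 and 1250138 for the input, so replicate 2 was 1.08 times deeper. After scaling for this, the log2 difference between replicates over the 44 peaks had a median of 0.04 and an SD of 0.18, and ranged from -0.43 to 0.31. Across the 44 peaks, the log2 coverage of the replicates had a Pearson correlation of 0.989 and a Spearman correlation of 0.972. These are descriptions across peaks that share libraries. The input gave only 7 to 31 fragments per peak, so its counting error limits every ratio. Enrichment is estimated from these same libraries, and ChIP coverage varied far more than input coverage. The closer tie of enrichment to ChIP coverage (Pearson 0.857 on the log2 scale, n = 44) than to input (-0.16) is therefore not separate evidence.

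**Figure D1:**
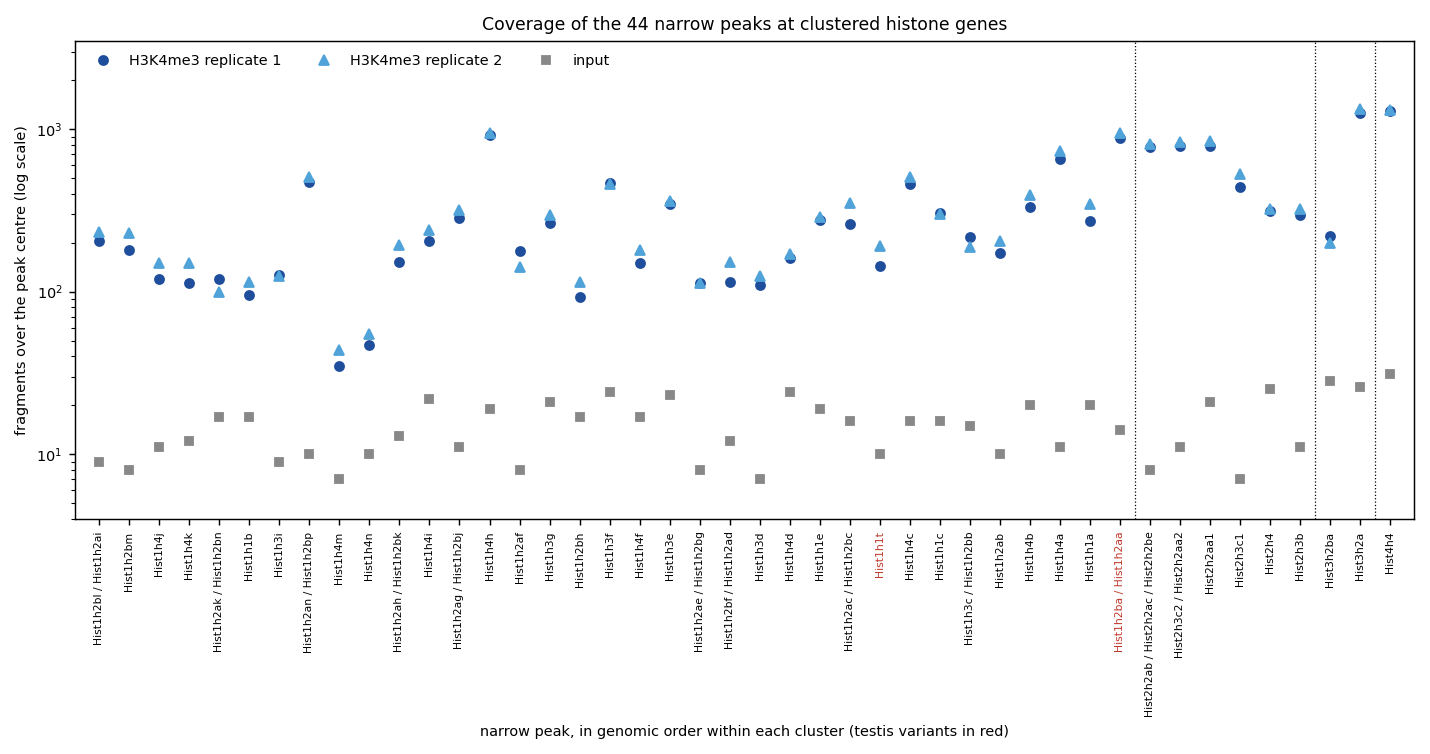
Fragments over the centre of each of the 44 narrow peaks at clustered histone genes, on a log axis, for H3K4me3 replicate 1 (circles), replicate 2 (triangles) and input (squares). Peaks are in genomic order within the Hist1, Hist2, Hist3 and Hist4 clusters, separated by dotted lines, and labels name every gene that takes the peak. The ChIP libraries range from 35 to 1335 fragments and the input from 7 to 31. Peaks were called against this input, so its lower level was set by the calling.

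The testis variants did not behave as a group. Hist1h2ba, which encodes TH2B, and Hist1h2aa, which encodes TH2A, are transcribed away from each other with starts 306 bp apart, and shared a single peak. That peak held 878 and 942 fragments in ChIP replicates 1 and 2, against an input of 14. Its enrichment was 61.1, above that of 71.2% of protein-coding genes with a peak and at rank 7 of the 57 genes, which both share. The mean ChIP coverage was 65.0 times the input, with an exact 95% interval of 38.6 to 119 that covers counting error only. The peak centre lay 326 bp inside Hist1h2ba and 632 bp upstream of Hist1h2aa. A 6500-bp broad peak covered the pair at the end of the Hist1 cluster.

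Hist1h1t, which encodes the spermatocyte linker histone H1t, lay near the middle of the family. Its peak held 144 and 192 fragments in ChIP replicates 1 and 2, against 10 for the input, and its centre lay 225 bp downstream of the start. The enrichment was 15.7, rank 30 of 57, and exceeded that of 26.7% of all genes with a peak. The ChIP coverage was 16.8 times the input (exact 95% interval 9.02 to 35.4), so the interval lies wholly below that of the TH2A and TH2B pair. The 5100-bp broad peak over Hist1h1t was shared with the H4 gene Hist1h4c, whose own peak was higher with 457, 511 and 16 fragments and an enrichment of 28.4.

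Among the H1 genes, Hist1h1t stood inside the range of its somatic relatives. Hist1h1c, encoding H1.2, had the highest value of the class, with 305 and 300 ChIP fragments, 16 in the input and an enrichment of 17.7. Hist1h1a (H1.1) held 274, 344 and 20 fragments with an enrichment of 14.4, and Hist1h1e (H1.4) held 275, 287 and 19 with 13.8. Hist1h1b (H1.5) was the lowest, at 95, 115 and 17 fragments and an enrichment of 5.68. Its ratio of ChIP to input, 6.18, had an interval of 3.77 to 10.8 that overlapped the interval of Hist1h1t. Hist1h1d (H1.3) was the single clustered histone gene with neither a narrow nor a broad peak within 1 kb of its GENCODE start. That start lies 1770 bp from the RefSeq start, where a peak of 204, 213 and 17 fragments and enrichment 11.4 was found. The centres of the 5 H1 peaks lay in a narrow band, 158 to 253 bp downstream of the start.

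The H2A genes had the highest class median, and an H2B gene shared their highest single value. Many H2A and H2B genes took the same peak, so the medians of these classes are not independent. Several of the highest H2A values lay in the Hist2 and Hist3 clusters, so class and cluster cannot be told apart in the H2A median. Of 18, 16 had a narrow peak with a median enrichment of 24.1. Hist2h2ab and Hist2h2ac, in the Hist2 cluster, shared the strongest peak of the family with the H2B gene Hist2h2be. It held 781, 813 and 8 fragments and had an enrichment of 93.7, above that of 92.1% of protein-coding genes with a peak. With 8 input fragments the ratio of ChIP to input, 99.6, had an interval of 50.4 to 231. Hist2h2aa2 and the H3 gene Hist2h3c2 shared a peak of 786, 834 and 11 fragments with an enrichment of 69.2. Hist3h2a had the highest coverage of the H2A genes, with 1265, 1335 and 26 fragments, and an enrichment of 46.9. Its 14300-bp broad peak also held a start of Trim17. The lowest H2A value belonged to Hist1h2ak, at 120, 99 and 17 fragments and 5.93. Hist1h2ao and Hist1h2ap had no narrow peak within 1 kb.

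The centres counted for H2B genes lay differently from those of the other classes, but most came from a peak shared with a neighbouring gene. Of 18, 14 had a narrow peak, and the median enrichment was 15.5. Hist2h2be shared the peak of 93.7 described above, Hist1h2ba that of 61.1, and Hist1h2bp shared with Hist1h2an a peak of 472, 510 and 10 fragments and enrichment 46.1. Hist1h2bh had the lowest value, with 93, 115 and 17 fragments and 5.63, close to that of Hist1h2bn, which shares the peak of Hist1h2ak. Hist3h2ba, the other Hist3 gene, held 219, 199 and 28 fragments with an enrichment of 6.90, although Hist3h2a lies in the same 7.91-kb cluster. Peak centres lay downstream of the start for 5 of the 14 H2B genes and at a median of -345 bp, that is upstream. A shared centre was counted for each of its genes, so position by class cannot be told apart from sharing. In H2A the centre lay downstream for 12 of 16, with a median of 236 bp. Hist1h2bq, Hist1h2br, Hist1h2be and Hist2h2bb had no narrow peak within 1 kb.

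The H3 genes had the smallest share with a narrow peak, 9 of 12, with a median enrichment of 15.7. The strongest were the Hist2 copies, Hist2h3c2 at 69.2 and Hist2h3c1 at 64.9, the latter with 439, 528 and 7 fragments. The lowest was Hist1h3g, with 263, 297 and 21 fragments and an enrichment of 12.4. Hist1h3a, Hist1h3b and Hist1h3h had no narrow peak within 1 kb. All 12 H3 genes had a broad peak there.

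All 13 H4 genes had a narrow peak, yet the class median was the lowest, 11.4. Hist1h4a had the highest enrichment, 59.5, with 658, 736 and 11 fragments, and Hist1h4h reached 46.3 with 925, 950 and 19. Hist4h4, alone on chromosome 6, had the highest mean coverage of the family with 1289, 1314 and 31 fragments. Its enrichment was 39.4, and its input was also the highest of the 44 peaks. Hist1h4d had 161, 170 and 24 fragments with an enrichment of 6.36. Hist1h4m had 35, 44 and 7 fragments with an enrichment of 5.18, and Hist1h4n had 47, 55 and 10 with 4.67, the lowest of all. The interval of the ChIP to input ratio was 2.61 to 14.5 for Hist1h4m and 2.66 to 10.95 for Hist1h4n, so these genes and Hist1h1b cannot be put in order. The H4 centres were close together in position, as were those of H1. For 11 of 13 the centre lay within 300 bp downstream of the start, and the remaining 2 were Hist1h4m at 479 bp and Hist1h4n at 664 bp.

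**Figure D2:**
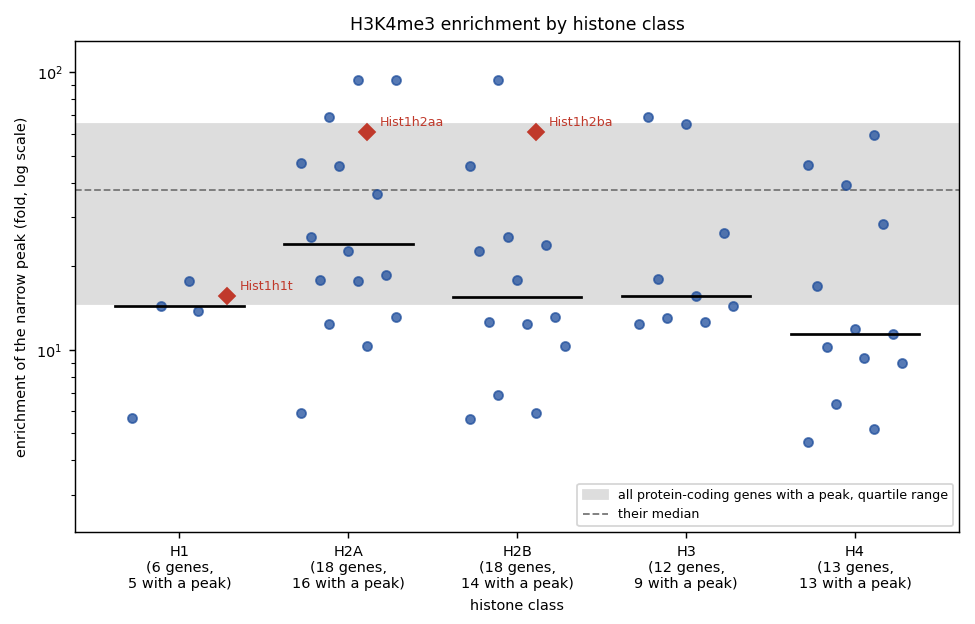
Enrichment of the narrow peak taken by each clustered histone gene, on a log axis, by histone class. Points are genes, red diamonds the testis variants, black bars class medians (14.4, 24.1, 15.5, 15.7 and 11.4 from H1 to H4), and the grey band and dashed line the quartile range and median of all protein-coding genes with a peak (14.7 to 65.3, median 37.6). Every class median lies below the dashed line, and genes on a shared peak appear at the same height.

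**Figure D3:**
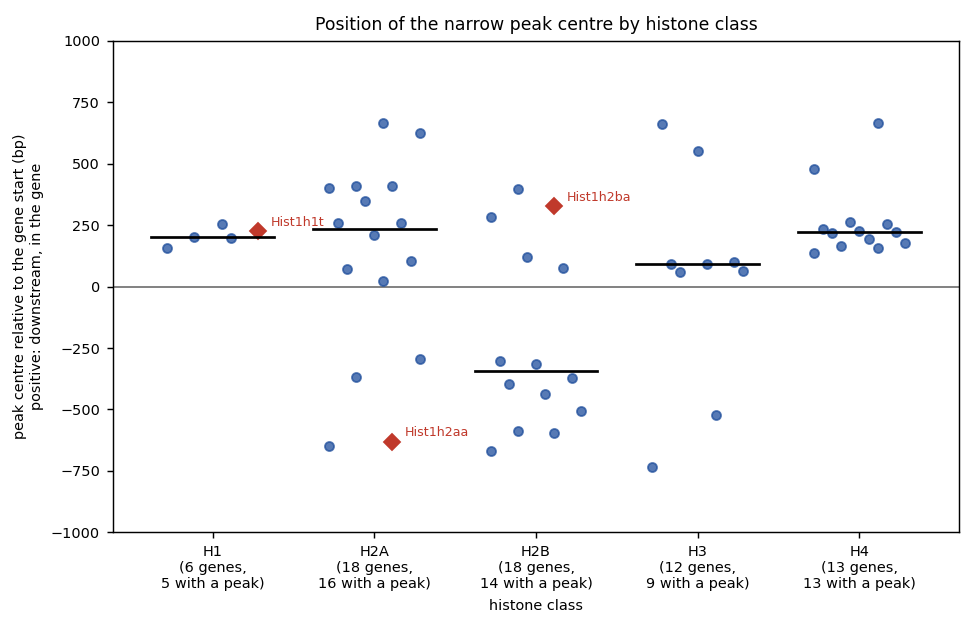
Distance of the peak centre from the gene start in bp, positive downstream of the start, by histone class. At some genes, such as Hist1h4m and Hist1h4n, a downstream centre lies past the gene end. Points are genes, red diamonds the testis variants and black bars class medians. H4 centres crowd around 220 bp downstream, H1 centres lie between 158 and 253 bp, and H2B centres lie mostly upstream, at a median of -345 bp. Most H2B centres belong to a peak shared with another gene.

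Many H2A and H2B genes stand head to head and took a single peak. There were 13 pairs of clustered histone genes transcribed away from each other with starts under 1 kb apart, and 12 of them joined an H2A to an H2B gene. A single narrow peak served both genes in 10 pairs, with starts 176 to 306 bp apart. The centre never lay between the starts. It lay inside the H2A gene in 7 pairs, for example Hist1h2ae of the Hist1h2ae and Hist1h2bg pair (113, 113 and 8 fragments, enrichment 13.2). It lay inside the H2B gene in 3, which were Hist1h2ba with Hist1h2aa, Hist1h2bp with Hist1h2an, and Hist1h2bc with Hist1h2ac. The closest narrow peaks in the whole set lay 857 bp apart, so this set holds no separate peaks on both sides of so short an interval, and whether both genes of a pair carried the mark cannot be read from the narrow peaks. Enrichment over the 10 shared peaks ranged from 5.93 to 93.7 with a median of 20.3.

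Over the whole family, 32 peaks belonged to a single gene, 11 to a pair and 1 to 3 genes. Genes alone on a peak had a median enrichment of 15.0 and a centre downstream of the start in 30 of 32. The 25 genes sharing a peak had a median of 22.7 and a centre downstream in 12 of 25. The centre lay downstream for 42 of the 57 genes and within 300 bp of the start for 31. The farthest centre counted was that of Hist1h3c, 735 bp upstream, and the nearest not counted were those of Hist2h2bb at 1034 bp and Hist1h3b at 1039 bp.

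For all 10 genes without a narrow peak within 1 kb, the nearest centre was one taken by a neighbour, 1034 to 2211 bp away. Hist1h3b had its nearest centre at the H2A gene Hist1h2ab (174, 205 and 10 fragments), and Hist2h2bb at Hist2h3b (297, 323 and 11). Hist1h3h lay 1214 bp from the shared peak of Hist1h2bl and Hist1h2ai (204, 233 and 9), Hist1h2be 1231 bp from that of Hist1h1e, and Hist1h3a 1350 bp from that of Hist1h4a. Hist1h2bq and Hist1h2ao lay 2028 and 1760 bp from the weak peak of Hist1h4m, and Hist1h2ap and Hist1h2br 1975 and 2211 bp from that of Hist1h4n. For Hist1h1d the centre nearest to the GENCODE start was 1839 bp away, and the peak at its RefSeq start is described above. All but Hist1h1d had a broad peak within 1 kb, and for 7 of those 9 the start lay inside it.

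Broad peaks joined neighbouring genes. The 66 genes took 34 broad peaks, of which 21 were shared, by at most 4 genes. The widest measured 14300 bp. One spanned Hist2h3c2, Hist2h2aa2, Hist2h2aa1 and Hist2h3c1, and the other held Hist3h2a. A 10600-bp peak spanned Hist1h4h, Hist1h2af and Hist1h3g, and a 9500-bp peak spanned Hist1h4b, Hist1h4a, Hist1h3a and Hist1h1a. The narrowest, 1300 bp, held Hist1h4d alone. Protein-coding starts of other genes lay in only 2 of the 34, Trim17 beside Hist3h2a and Bola1 beside the Hist2h2ab, Hist2h2ac and Hist2h2be peak.

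By position, the peaks of clustered histone genes fell among those not ascribed to PRDM9. Of the 67 genes, 66 had a broad peak that overlapped a PRDM9-independent region, a stretch the authors set aside as possibly marked without PRDM9, against a background of 74% of protein-coding genes and 92.2% of those with a broad peak. All 44 narrow peak centres lay inside such a region, as did 91.2% of the centres taken by all protein-coding genes. At least 50% of the broad peak was covered for 33 of the 34, against 85.5% of the broad peaks of all genes. Most promoters with the mark thus share this position. The exception was the 4200-bp peak of Hist1h4n, Hist1h2ap and Hist1h2br, of which 700 bp or 16.7% was covered. The 6500-bp peak of Hist1h2ba and Hist1h2aa was covered whole.

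The clusters differed in level. In Hist2, which spans 50.3 kb, the 9 genes with a narrow peak had a median enrichment of 69.2 and took 6 peaks. This median counts the peak of 93.7 for 3 genes and that of 69.2 for 2, while the other peaks were lower. In Hist1, which spans 2219 kb, 45 genes on 35 peaks had a median of 14.4. The ranges overlapped: Hist2h4, the weakest Hist2 gene, held 314, 324 and 25 fragments with an enrichment of 11.9, and Hist2h3b had 26.4. Hist1 falls into blocks on either side of a gap of 1488 kb. The first, from Hist1h2bl to Hist1h2bj, held 23 genes in 328 kb with a median enrichment of 12.4, and the second, from Hist1h4h to Hist1h2aa, held 31 genes in 404 kb with a median of 15.7. The broad peaks of these genes covered 41500 bp and 58800 bp. Between the first and last Hist1 genes, with the gap included, lie 49 other protein-coding genes. Of these, 8 (16.3%) had a narrow peak and 9 (18.4%) a broad one, against 77.4% and 80.2% of all protein-coding genes. No test of these shares was made. The 8 genes had a median enrichment of 35.0, but no gene lay near it. Zfp322a, Zfp184, Abt1 and Pom121l2 had 60.7 to 79.8. Prss16, Hfe, Vmn1r213 and Btn2a2 had 2.41 to 9.34, below the 14.4 of Hist1.

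In 5 pairs the genes were nearly identical in their promoter windows (at least 95%), and their values are uncertain. Identity was measured in these windows only, while the centre lay downstream of the start for 42 of the 57 genes with a peak. The authors removed read pairs in which neither end mapped uniquely enough to score above 0, so fragments that fit several copies equally well can be lost. Hist1h2bq and Hist1h2br were identical over all 300 bases and neither had a narrow peak. Hist1h4m and Hist1h4n were the weakest genes of the family. Hist1h4j (120, 150 and 11 fragments) and Hist1h4k (113, 151 and 12) matched at 95.8% and had enrichments of 11.4 and 10.2. In the Hist2 cluster the levels were higher, but the centres of the pairs there lay outside the windows in which identity was measured. Hist2h3c2 and Hist2h3c1 matched at 99.6% with 69.2 and 64.9. Hist2h2aa2 and Hist2h2aa1 matched at 95.8% with 69.2 and 36.3, the latter on a peak of 784, 842 and 21 fragments. The input was low at some of these peaks, 7 fragments at Hist1h4m and at Hist2h3c1, and the share of fragments lost to mapping was not tested.

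The octamer, the CCAAT box and the H1 box were spread unevenly over the histone classes, but no motif told all classes apart. RefSeq promoter windows of 300 bases, from 250 before to 50 after the start, were matched for 62 of the 67 genes and compared with all 27025 windows of the same length. Matches to different motifs overlapped in 0 of the 62. The octamer was found in 13 of 62 (20.97%) against 1.74% of all windows, and only in H2A (7 of 18) and H2B (6 of 16). In H2B it always lay on the strand of the gene and in H2A never did. The 13 matches were 10 places in the genome, of which 3 lay in the windows of both genes of a divergent pair: Hist1h2ah with Hist1h2bk, Hist1h2ae with Hist1h2bg, and the testis pair Hist1h2aa with Hist1h2ba. In Hist1h2bb the octamer began 90 bases before the start, and in Hist1h2bm 25 bases.

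The CCAAT box was present in 53 of 62 windows (85.5%) against 37.8%, in every window of H1, H2A, H2B and H3, but in only 3 of 12 H4 windows, those of Hist1h4a, Hist1h4c and Hist1h4d. The TATA box was found in 35 of 62 (56.5%) against 14.1%, and in every class. It lay in 4 of 6 H1, 11 of 18 H2A and 8 of 16 H2B windows. In H3 it was found in 4 of 10, and in H4 in 8 of 12. The H1 box was found in 9 (14.5%) against 7.25%, and in 5 of the 6 H1 genes. Outside H1 it lay in Hist1h2ab, Hist1h2bm, Hist1h2ba and Hist1h2aa. The match of Hist1h2ba lay within the overlapping window of Hist1h2aa, so that place was counted for both genes. The medians of enrichment by motif differed little beside their ranges. With genes lacking a peak set to 0, the median enrichment was 17.7 with and 13.05 without an octamer, 12.4 with and 18.6 without a TATA box, and 14.4 with and 10.2 without a CCAAT box, and the ranges overlapped widely. Hist4h4, which had the highest coverage, showed none of the 4 motifs in the 150 bases before its start. A match is a description of letters and not evidence of binding.

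**Figure D4:**
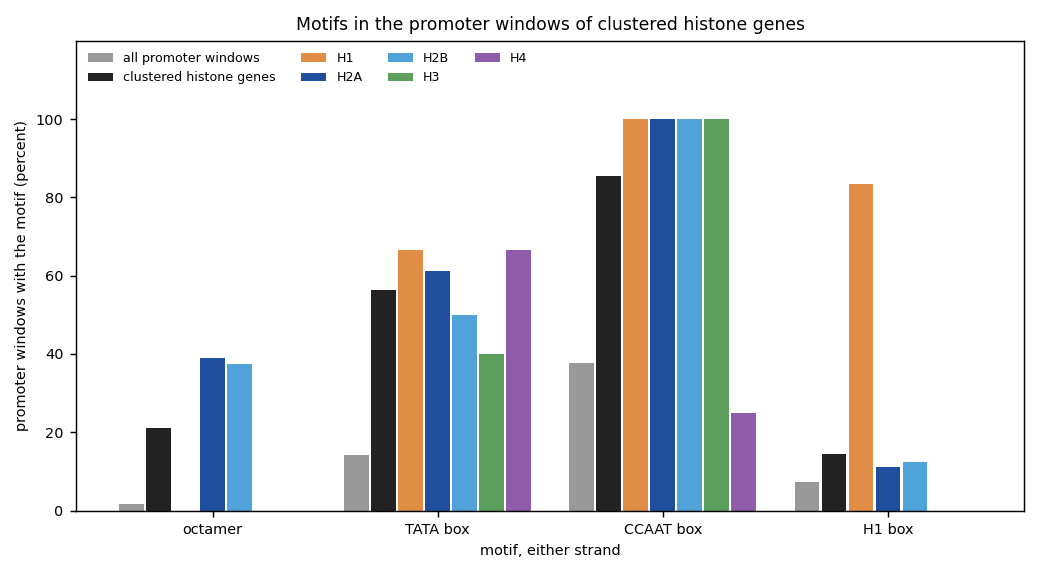
Percent of promoter windows that hold each motif on either strand, for all 27025 RefSeq windows (grey), the 62 clustered histone genes with a window (black) and each histone class (colours; 6 H1, 18 H2A, 16 H2B, 10 H3 and 12 H4 windows). The octamer bars are at 0 for H1, H3 and H4, the CCAAT bars reach the top for every class except H4, and the H1 box is highest in H1.

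Histone promoters were AT-rich and rich in CpG for their base composition. The median GC content was 45.3% against 52.7% over all windows, while the ratio of observed to expected CpG was 0.748 against 0.380. The windows of the 3 testis variants had the same median GC content, 45.3%, but a CpG ratio of 0.455, below the lower quartile of the family (0.590). The windows of Hist1h2ba and Hist1h2aa overlap. Some other members had lower ratios, such as Hist1h2bn (0.253) and Hist1h2bb (0.281), so a low ratio was not particular to the testis variants.

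Histone genes outside the clusters and the genes that act on histone transcripts had higher peaks. Of 14 replication-independent histone genes, 13 had a narrow peak, at a median enrichment of 47.8. H2afx, encoding the variant phosphorylated at DNA breaks, held 2286, 2184 and 22 fragments with 95.5, H2afz (H2A.Z) 1749, 1816 and 20 with 83.8, and H3f3b (H3.3) 2647, 2492 and 35 with 69.0. Hils1, a spermatid linker histone, held 322, 390 and 7 fragments with 47.8, and H1fnt, another, held 457, 485 and 20 with 22.0. Cenpa, the centromeric H3 variant, held 430, 491 and 23 with 18.7, so low coverage was not limited to germ cell variants. H1foo, the oocyte linker histone, had no narrow peak. All 14 factors of histone gene transcription and histone mRNA processing had one, at a median of 66.6. Npat held 1882, 2055 and 22 fragments with 84.1, and Slbp 2091, 2137 and 30 with 66.2. Hinfp, which activates H4 genes, reached 95.1, and Pou2f1, which encodes OCT1, 95.01. Lsm10, a subunit of the U7 snRNP that processes histone mRNA, was the lowest of the 14 at 18.2. These ranges overlapped with that of the clustered genes, and the lists were not compared by a test.

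Promoters of both germ cell and somatic cell markers carried the mark. Narrow peaks lay at 6 of 7 germ cell genes. Coverage was high at Sycp3 (2006, 2095 and 17 fragments), Ddx4 (1738, 1871 and 23) and Sycp1 (1446, 1406 and 20). It was lower at Dmc1 (416, 475 and 29), and at the spermatid genes Tnp1 (165, 160 and 16) and Prm1 (126, 125 and 8), while Acrv1 had no narrow peak. These counts cover the peak centre only. Broad peaks of 22800 bp at Tnp1, 23900 bp at Prm1 and 7600 bp at Acrv1 lay within 1 kb of a start. The Sertoli cell genes Wt1 (489, 484 and 26) and Sox9 (311, 302 and 26) had more fragments over the centre than Tnp1 and Prm1. Their broad peaks were narrower, 12600 and 5000 bp. Amh had no narrow peak but a broad peak of 4600 bp. Peaks lay at 3 of 4 Leydig cell genes, Insl3 with 118, 107 and 7 fragments, Cyp11a1 with 49, 40 and 4, and Star with 40, 35 and 3, but not at Hsd3b1. The macrophage genes Csf1r and Cd68 held 35, 22 and 5 and 6, 36 and 17 fragments. At Cd68 replicate 1 was below the input, and the enrichment was 1.03. Of 4 genes of other tissues, 1 had a narrow peak and 2 had a broad peak, Gfap (700 bp) and Myh6 (500 bp). The part of somatic cells in the signal at clustered histone genes, which dividing cells of any type use, was not tested.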

How the data were processed

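H3K4me3 ChIP-seq reads (2 ChIP libraries, 1 input) were aligned by the authors to mm10 with BWA and Stampy, duplicates and pairs of mapping quality 0 on both ends were removed, and fragment coverage was computed with SAMtools and bedtools. The deposited coverage values are raw counts of fragments that overlap a narrow peak centre in each library. The deposited enrichment is a ratio to local background, estimated by the authors from both replicates by maximum likelihood, with 0 for none. The deposited p-value comes from the authors' likelihood ratio test, and no deposited narrow peak had a p above 9.59e-07. Broad peaks and PRDM9-independent regions were deposited as positions.

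Peaks were assigned to a gene when the centre (narrow) or any base (broad) lay within 1000 bp of a transcript start. Of several peaks, the narrow peak of highest enrichment and the widest broad peak were used. Overlap with a PRDM9-independent region required at least 1 bp. Log2 ratios used a pseudocount of 1. Intervals are exact 95% binomial (Clopper-Pearson) intervals of ChIP against input fragments, for counting error only. All 67 genes were matched to RefSeq and 62 to a RefSeq promoter window of GRCm38.p6. Genes named were the testis variants, genes without a narrow peak, the 5 highest and 5 lowest in enrichment, the extremes of each class, nearly identical copies and the widest and narrowest broad peaks. Further members, the Hist1 blocks, the octamer places and the genes between were chosen after their values were seen. The genes and lists were chosen with earlier results of these data known. With a single condition no group test was made. Peak matching was tested on simulated data. Figures were drawn with matplotlib 3.10.9, and values were computed in Python 3.11.15 using scipy 1.17.1, pandas 2.3.3 and numpy 2.4.6.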

Additional observations from a re-analysis of the deposited data

How the results depend on the processing

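The count of 57 genes with a narrow peak stayed at 57 with a p limit of 1e-10, with the gene start alone and without either replicate, was 44 within 500 bp and 65 within 2 kb, and was 59 from RefSeq starts, an alternative chosen after seeing the data. The count of 66 with a broad peak was 64 to 67 under its alternatives. The median enrichment of 13.8 rose to 15.7 over distinct peaks and to 16.9 with genes lacking a peak left out, and was 14.4 from RefSeq starts. The median log2 ratio of 4.11 was 3.68 with a pseudocount of 5 and 3.92 over distinct peaks. It ranged from 3.95 to 4.13 without either replicate. Searching the gene's own strand alone left 6 octamer genes in place of 13, all of them H2B genes. No paired analysis was possible because the groups share fewer than 2 replicate numbers and no test was made. Peaks had been called on both ChIP libraries jointly, so leaving out a replicate changed coverage only. Input counts of 7 to 31 fragments limit the order of genes whose intervals overlap.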
